A study of Homo sapiens with 20 samples.

Results

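The 7 genes described here encode proteins that start or steer the removal of poly(A) tails from mRNAs: *ZFP36*, *ZFP36L1* and *ZFP36L2* of the ZFP36 family, and *BTG1*, *BTG3*, *TOB1* and *TOB2* of the BTG/TOB family. They were chosen by symbol, and all 7 matched 1 identifier each among the 58233 gene identifiers of the count tables. The tables hold 20 RNA-seq libraries from 4 human lung cancer cell lines in which CRISPR-Cas9 was directed to *ADAR*, the gene of the RNA-editing enzyme ADAR1, or to *GFP*, a sequence absent from human cells, as control. HCC366 (lung adenosquamous carcinoma), NCI-H1650 (lung adenocarcinoma) and NCI-H196 (a variant small cell lung cancer) are lines that lose viability without ADAR1 and were left untreated, whereas A549 (lung adenocarcinoma) tolerates its loss and was kept for 24 h in sterile water as vehicle or in 10 ng/mL IFN-β, the type I interferon. This gave 10 conditions, each with 2 libraries from 2 different sgRNAs (sg1 and sg2). Every line, controls included, carried a lentiviral vector that expresses Cas9 together with the sgRNA, and each library came from a drug-selected pool of cells and not from a clone, so that "*ADAR* KO" names the pool that received an *ADAR* sgRNA.

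ZFP36 proteins carry zinc fingers that bind AU-rich elements, short A- and U-rich motifs in the 3′ untranslated region (3′ UTR) of many cytokine, chemokine and growth-control mRNAs, and recruit the CCR4-NOT deadenylase, after which the mRNA is decapped and degraded. BTG and TOB proteins bind the CAF1-type deadenylase subunit of CCR4-NOT through their shared amino-terminal domain, and TOB proteins also bind the cytoplasmic poly(A)-binding protein. Several of these genes are immediate-early or stress-responsive, and ZFP36, also called tristetraprolin, acts in feedback on inflammatory mRNAs and on its own mRNA.

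All 7 are protein-coding genes, and their positions are given on GRCh37 (hg19), the build of the deposited alignments. *ZFP36* (ENSG00000128016) lies on chr19:39897487-39900052 on the plus strand. The other 6 lie on minus strands: *ZFP36L1* (ENSG00000185650) on chr14:69254377-69262970, *ZFP36L2* (ENSG00000152518) on chr2:43449541-43453745, *BTG1* (ENSG00000133639) on chr12:92534054-92539622, *BTG3* (ENSG00000154640) on chr21:18965971-18985263, *TOB1* (ENSG00000141232) on chr17:48939584-48945339 and *TOB2* (ENSG00000183864) on chr22:41829498-41842805. *BTG3* has 5 exons in its canonical transcript and the others have 2. *BTG1*, *BTG3* and *TOB1* overlap annotated long noncoding genes: *BTG3-AS1* shares 1250 bases and *TOB1-AS1* 1300 bases on the opposite strand, and *LINC01619* shares 2637 bases with *BTG1* on the same strand. Reads in those stretches could have been assigned to neither gene, so the counts of these 3 genes are uncertain to that extent.

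The AU-rich nonamer TTATTTATT, the DNA spelling of a preferred binding motif of ZFP36 proteins, was searched in the annotated 3′ UTR of each canonical transcript on its sense strand, because it shows which of these mRNAs carry the family's own target motif. Each of the 3 ZFP36 family mRNAs held 1 copy, and the 4 BTG and TOB mRNAs held none. Among 19067 canonical coding transcripts, 8.49% held at least 1 copy. The 3′ UTRs of the ZFP36 family were 708 (*ZFP36*), 1871 (*ZFP36L1*) and 1917 (*ZFP36L2*) bases long, against a median of 1071 over all transcripts, and length raises the chance of a match. The 3 sites, at chr19:39899846-39899854, chr14:69254804-69254812 and chr2:43450597-43450605, are printed 5′ to 3′ on the mRNA strand with the nonamer in capitals.
ZFP36: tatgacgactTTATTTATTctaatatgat
ZFP36L1: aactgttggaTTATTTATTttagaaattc
ZFP36L2: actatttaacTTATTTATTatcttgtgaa
The shorter pentamer ATTTA, which overlaps the nonamer, occurred 5 times in *ZFP36*, 8 times in *ZFP36L1*, 5 times in *ZFP36L2*, 5 times in *BTG1*, 3 times in *BTG3*, 4 times in *TOB1* and 3 times in *TOB2*.

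Promoter windows, from 250 bases before to 50 bases after the gene start, were taken from RefSeq on GRCh38.p14 for 6 of the 7 genes, with 2 windows each for *ZFP36L1* and *TOB1*. The windows of *ZFP36*, *ZFP36L1* and *BTG1* are shown because these genes moved most in the comparisons that follow. They were searched on both strands for 6 motifs of inducible transcription: the CArG box, TGACGTCA (the cAMP response element), TGANTCA (AP-1), TGATGNAAN (the ATF4 and C/EBP composite element), the interferon-stimulated response element (GAAA, any 2 bases, GAAA) and the kappaB site. Matches, in capitals, occurred in the *ZFP36L1* windows only. TGACGTCA stood at -52 to -45 from the downstream *ZFP36L1* start, and TTTCACTTTC, the reverse complement of an interferon-stimulated response element match, at -10 to -1 from the upstream start. Of all 35116 windows of this length, 1.85% held TGACGTCA, 3.57% held the interferon-stimulated response element, 7.71% held TGANTCA, 3.61% held TGATGNAAN, 1.29% held a CArG box and 11.3% held a kappaB site. The windows are chr19:39406597-39406896 (plus strand) for *ZFP36*, chr14:68793367-68793666 and chr14:68796194-68796493 (minus strand) for the downstream and upstream starts of *ZFP36L1*, and chr12:92145797-92146096 (minus strand) for *BTG1*, each written on its gene's strand.
ZFP36: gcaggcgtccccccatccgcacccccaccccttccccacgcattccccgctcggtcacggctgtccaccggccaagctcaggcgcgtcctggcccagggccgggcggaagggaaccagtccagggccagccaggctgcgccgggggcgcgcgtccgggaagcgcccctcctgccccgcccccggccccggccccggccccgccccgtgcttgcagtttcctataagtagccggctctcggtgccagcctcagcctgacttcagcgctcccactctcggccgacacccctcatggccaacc
ZFP36L1, downstream start: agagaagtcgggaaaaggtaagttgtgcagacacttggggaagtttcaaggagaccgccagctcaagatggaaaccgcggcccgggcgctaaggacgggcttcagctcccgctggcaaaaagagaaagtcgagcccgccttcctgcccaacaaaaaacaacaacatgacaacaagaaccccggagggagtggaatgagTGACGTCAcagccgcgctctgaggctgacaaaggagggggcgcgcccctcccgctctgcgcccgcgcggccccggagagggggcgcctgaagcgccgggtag
ZFP36L1, upstream start: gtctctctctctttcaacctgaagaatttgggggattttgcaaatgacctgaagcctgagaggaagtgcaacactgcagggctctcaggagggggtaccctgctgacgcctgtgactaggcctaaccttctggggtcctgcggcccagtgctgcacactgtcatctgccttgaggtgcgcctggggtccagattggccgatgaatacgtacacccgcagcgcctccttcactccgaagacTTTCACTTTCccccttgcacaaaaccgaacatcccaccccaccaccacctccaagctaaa
BTG1: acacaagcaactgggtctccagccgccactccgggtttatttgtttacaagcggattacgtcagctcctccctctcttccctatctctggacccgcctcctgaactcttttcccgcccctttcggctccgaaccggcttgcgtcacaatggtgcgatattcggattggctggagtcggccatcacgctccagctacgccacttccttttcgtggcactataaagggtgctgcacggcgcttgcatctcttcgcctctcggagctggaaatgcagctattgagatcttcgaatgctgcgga

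Reads assigned to genes ranged from 62679 to 19520189 per library, with a median of 6411279. The library at 62679 was NCI-H196 GFP sg2, in which 1 read was worth 14.7 CPM (reads scaled to a common library size, within a cell line by the TMM method), so that its values for single genes rest on few reads. HCC366 *ADAR* sg2 stood apart in another way: 85.6% of its alignments were not unique, against 22.5 to 59.1% in the others, and 52.4% of the variance of its log2 CPM around the line's mean went with GC content and the length of transcripts. *ADAR* reads were lower in the KO libraries than in both matched controls in all 5 comparisons, by 0.41 to 1.29 on the log2 scale. By edgeR the fall passed in NCI-H1650, NCI-H196 and both A549 comparisons, but not in HCC366. IFN-β raised *ISG15*, an interferon-stimulated gene, from 4.35 and 4.91 CPM to 546 and 826 CPM in A549 control libraries. Defining markers of the labelled tumour types were near background in part: the summed level of the neuroendocrine genes was 0 to 3.24 CPM in NCI-H196, with *NEUROD1* and *INSM1* at 0, while its *VIM* was at 1318 to 2277 CPM. Summed squamous markers were at 1.43 to 4.89 CPM in HCC366, with *SOX2* at 0, and summed lung adenocarcinoma markers reached at most 7.98 CPM in any library. The 2 libraries of a condition differ in their sgRNA, and p-values measure the spread between such pools.

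In control cells the 7 genes were set at different levels in the 4 lines, which is described per kilobase of transcript (CPM per kb, scaled over all 20 libraries) so that genes can also be compared with each other. In such bulk RNA, fewer cells with an mRNA and less of it per cell cannot be told apart. *ZFP36L1* was the most abundant of the 7 in all 8 control libraries: 132 and 130 CPM per kb in A549, 47.3 and 43.1 in NCI-H1650, 45.7 and 45.1 in NCI-H196, and 29.6 and 36.4 in HCC366. The A549 libraries lay far above all others, and edgeR's quasi-likelihood test put A549 above each of the other lines (adjusted p from 7.95e-18 to 1.12e-29), whereas NCI-H1650 and NCI-H196 did not differ beyond their spread (log2 difference 0.03 ± 0.15 SE, adjusted p = 0.882).

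*ZFP36* itself, the cytokine-mRNA regulator, was at 29.9 and 28.9 CPM per kb in NCI-H1650 and 23.8 and 29.2 in A549, but at 5.73 and 4.14 in HCC366 and 5.50 and 11.97 in NCI-H196. The higher and the lower pair of lines did not overlap, and within each pair the difference did not pass edgeR's test (adjusted p = 0.312 for A549 against NCI-H1650 and 0.525 for NCI-H196 against HCC366). *ZFP36L2* had another order, with 40.5 and 39.4 CPM per kb in NCI-H1650, 25.4 and 25.5 in NCI-H196, 16.3 and 12.2 in HCC366, and 11.3 and 15.7 in A549. The 2 lowest lines overlapped (adjusted p = 0.723), and the other steps passed the test.

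*BTG1* was highest in NCI-H196, at 36.4 and 22.6 CPM per kb, followed by NCI-H1650 at 21.4 and 19.1, A549 at 15.6 and 16.5, and HCC366 at 7.87 and 8.16. Each neighbour in that order differed by edgeR (adjusted p at most 0.00693), although 1 NCI-H196 library rested on 10 reads. *TOB1* ran from 35.8 and 35.9 CPM per kb in A549 and 32.4 and 25.0 in NCI-H1650 to 15.97 and 19.9 in HCC366 and 10.98 and 4.67 in NCI-H196. *TOB2* varied least, between 9.75 and 20.1 CPM per kb over the 8 control libraries.

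*BTG3* was close to absent in one line. NCI-H196 had 3 and 0 reads of it in the control libraries and 1 and 4 reads in the *ADAR* KO libraries, out of 62679 to 9156750 reads on genes, and in the deepest of the 4 the level was 0.335 CPM. The other lines had 10.8 and 22.1 CPM (HCC366), 47.2 and 39.6 CPM (NCI-H1650) and 17.9 and 18.9 CPM (A549 with vehicle), from 14 to 284 reads. Unlike the values per kb, these CPM were scaled within each line, so sizes between lines are not read from them. NCI-H196 differed from each of them by edgeR (adjusted p at most 6.56e-23). Of 42 pairwise tests of the 7 genes between lines, 35 passed the threshold of adjusted p = 0.05, where 56.7% (NCI-H1650 against HCC366), 57.3% (NCI-H196 against HCC366), 64.9% (A549 against HCC366), 61.7% (NCI-H196 against NCI-H1650), 68.3% (A549 against NCI-H1650) and 70.5% (A549 against NCI-H196) of all genes did, so that differing between lines was common for any gene. Without NCI-H196 GFP sg1, which leaves that line with its shallow library, fewer of the 7 and fewer of all genes passed in each comparison with NCI-H196.

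**Figure D1:**
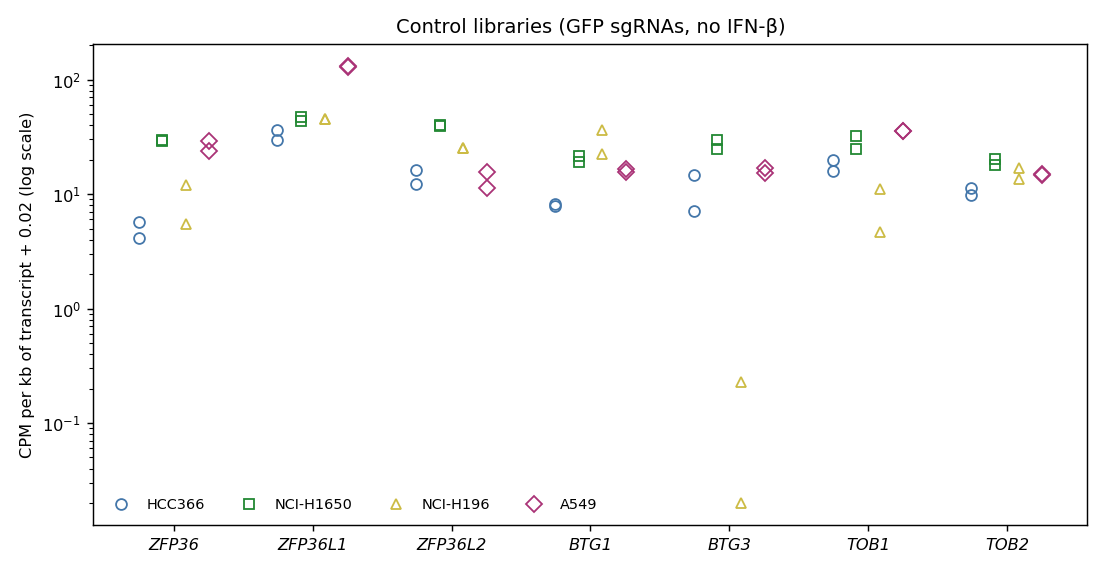
Levels of the 7 genes in control libraries (GFP sgRNAs, no IFN-β), in CPM per kb of transcript plus 0.02 on a log axis, with 1 point per library and 2 libraries per line. *BTG3* in NCI-H196 falls below every other point, and *ZFP36L1* in A549 stands above them.

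*ADAR* KO was then compared with the GFP control in each line that loses viability without ADAR1. *ZFP36* was higher in KO cells of all 3 lines in the fitted values. In HCC366 it was at 10.8 and 7.74 CPM in the controls and 25.4 and 63.4 CPM in the KO libraries, a log2 fold change of 2.32 ± 0.52 (SE, n = 2 and 2). The groups did not overlap, but the KO libraries differed from each other by more than the controls did from the lower of them, and edgeR's adjusted p was 0.0758. The higher value came from the library with non-unique alignments, and without it the log2 fold change was 1.56 (edgeR, adjusted p = 0.00546). It was 2.84 without *ADAR* sg1 (adjusted p = 1.74e-18), 2.48 without GFP sg1 (adjusted p = 0.303) and 2.03 without GFP sg2 (adjusted p = 0.939). Each of these fits leaves 1 library in an arm, which is assumed to vary like the pair in the other arm, so without an *ADAR* library the p-value holds no spread between KO libraries. The direction was the same in all 4 and the call was not, and the part of the non-unique alignments in these values was not tested.

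In NCI-H1650 *ZFP36* was at 58.4 and 57.6 CPM in the controls and 81.2 and 78.2 CPM in KO cells, and it rose by 0.46 ± 0.12 on the log2 scale (edgeR, adjusted p = 0.0102). In NCI-H196 it was at 11.04 CPM (99 reads) and 29.3 CPM (2 reads) in the controls and 26.4 and 24.0 CPM in KO cells. The fit, which weights libraries by depth, gave a rise of 1.12 ± 0.22 (edgeR, adjusted p = 8.85e-06), yet the 2-read control lay above both KO libraries. Without NCI-H196 GFP sg1, only that shallow control was left, and the log2 fold change turned to -0.26 (adjusted p = 0.959 by edgeR).

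*BTG1*, which binds and stimulates CCR4-NOT and is known as an antiproliferative factor of quiescent lymphocytes, was also higher in KO cells of all 3 lines. HCC366 had 39.5 and 40.4 CPM in the controls and 117 and 82.1 CPM in KO cells, a log2 fold change of 1.31 ± 0.36 that missed the threshold (edgeR, adjusted p = 0.124). With 1 library left out, and so 1 arm of a single library, it was 1.57 without *ADAR* sg2 and 1.02 without *ADAR* sg1 (edgeR, adjusted p = 1.38e-08 and 1.23e-04), but 1.27 without GFP sg1 and 1.33 without GFP sg2 (adjusted p = 0.977 and 1.00). In NCI-H1650 the level went from 111 and 101 CPM to 178 and 205 CPM, and *BTG1* rose by 0.85 ± 0.11 (edgeR, adjusted p = 4.61e-08). In NCI-H196 it went from 194 and 147 CPM to 261 and 258 CPM, a rise of 0.43 ± 0.10 (edgeR, adjusted p = 5.94e-04). The control at 147 CPM was the shallow GFP sg2, so this call leaned on 1 deep control library. With 1 NCI-H196 library left out, the log2 fold change was 0.83 without GFP sg1 and 0.41 without GFP sg2. It was 0.49 without *ADAR* sg1 and 0.50 without *ADAR* sg2. In each of the 3 lines both KO libraries lay above both controls.

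The other ZFP36 paralogs moved less. *ZFP36L1* was at 160 and 148 CPM in NCI-H1650 controls and 183 and 202 CPM in KO cells, a rise of 0.32 ± 0.10 (edgeR, adjusted p = 0.0419). In NCI-H196 it had 158 and 191 CPM in the controls and 177 and 205 CPM in KO cells, which overlap, and the fitted rise was 0.31 ± 0.10 (edgeR, adjusted p = 0.0170). In HCC366 its fitted value was -0.16 ± 0.33, with overlapping libraries. *ZFP36L2* went from 167 and 166 CPM to 224 and 214 CPM in NCI-H1650 (0.39 ± 0.10, edgeR adjusted p = 0.00838) and from 108 and 132 CPM to 132 and 143 CPM in NCI-H196 (0.37 ± 0.11, edgeR adjusted p = 0.00643). HCC366 gave 0.41 ± 0.37 for *ZFP36L2* with overlapping libraries. In NCI-H196 both calls leaned on 1 deep control library, since GFP sg2 was shallow. With 1 library left out there, *ZFP36L1* ranged from 0.066 to 0.34 and *ZFP36L2* from 0.098 to 0.37. Both were lowest without GFP sg1.

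Of the remaining BTG/TOB genes, *TOB2* followed the same direction with small sizes. It went from 97.7 and 87.9 CPM to 117 and 124 CPM in NCI-H1650, a rise of 0.38 ± 0.11 (edgeR, adjusted p = 0.0239). Its log2 fold change was 0.33 ± 0.13 in NCI-H196 (adjusted p = 0.0517 by edgeR) and 0.70 ± 0.36 in HCC366 (adjusted p = 0.333), neither past the threshold. *TOB1*, the closest paralog of *TOB2*, had log2 fold changes of -0.25 ± 0.40, 0.17 ± 0.12 and -0.02 ± 0.18 in HCC366, NCI-H1650 and NCI-H196. *BTG3* had -0.41 ± 0.47 in HCC366 and -0.13 ± 0.14 in NCI-H1650, and its reads in NCI-H196 were too few to be tested.

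By edgeR, 0 of the 7 genes passed in HCC366, where 1.25% of 11135 genes did; ZFP36 and BTG1 had unadjusted p of 0.00159 and 0.00507, and DESeq2 called 1 of the 7. In NCI-H1650, 5 of 7 were higher, against 6.18% of 14530 genes. In NCI-H196, 4 of the 6 tested were higher, against 10.3% of 14094 genes, and none fell in any of the 3 lines, where 0.0449%, 2.42% and 7.50% of genes did. The median log2 fold change of the tested members was 0.41, 0.38 and 0.35 in HCC366, NCI-H1650 and NCI-H196, where that of all genes was -0.01, 0.01 and -0.0039. With offsets for GC content and transcript length, the HCC366 median was 0.055, where that of all genes was -0.066. Both KO libraries lay above both controls for 3 genes (HCC366), 5 genes (NCI-H1650) and 2 genes (NCI-H196), where this held for 25.1%, 26.2% and 25.6% of all genes tested. DESeq2 called 2 of 7 in NCI-H1650, and in NCI-H196 it gave an adjusted p to 2 of the 6 and called neither. Leaving out 1 library moved these counts. In HCC366, 5 passed without *ADAR* sg1 (4 higher, and *TOB1* lower), where 6408 of 12324 genes did, and 2 without *ADAR* sg2, where 1058 of 11244 genes did. In that line 0 passed without GFP sg1 or without GFP sg2, where 37 of 12387 and 9 of 11522 genes did. In NCI-H1650 the members' median was 0.41 and 0.27 without GFP sg1 and sg2, and 0.38 and 0.33 without *ADAR* sg1 and sg2. In NCI-H196 it was 0.08 without GFP sg1, where that of all genes was 0.18. It was 0.35 there without the shallow GFP sg2, 0.36 without *ADAR* sg1 and 0.34 without *ADAR* sg2. These fits leave 1 library in an arm, and the calls of all genes moved with them.

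**Figure D2:**
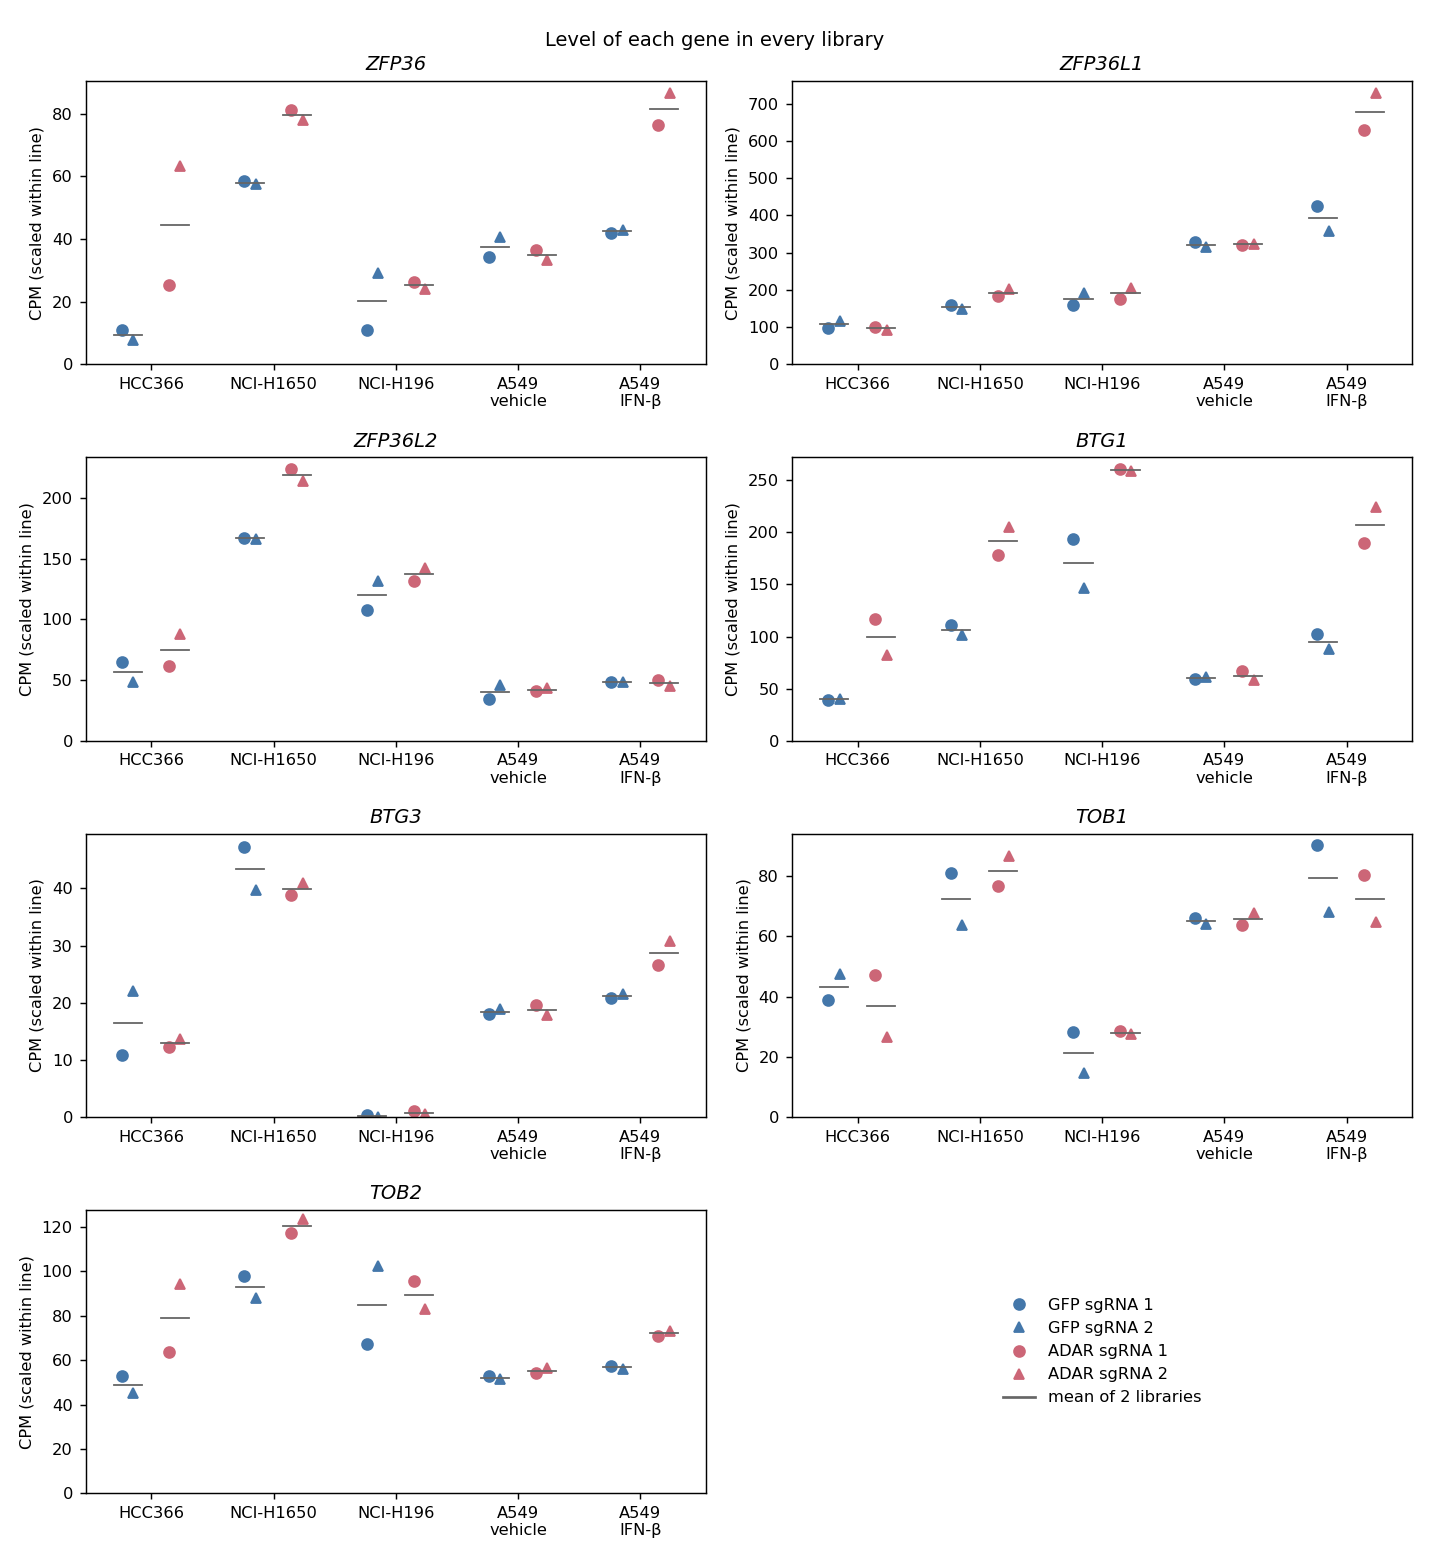
Level of each gene in every library, in CPM scaled within each cell line, with blue points for GFP and red points for *ADAR* sgRNAs, circles for sg1, triangles for sg2 and a bar at the mean of 2 libraries. The blue triangles of NCI-H196 rest on 0 to 13 reads per gene; *BTG1* is higher in both KO libraries than in both controls in every line but A549 with vehicle.

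In a model of all 12 libraries of the 3 lines with cell line as a term, the KO effect passed the test for *ZFP36* (log2 fold change 1.09 ± 0.26, edgeR adjusted p = 0.0193) and *BTG1* (0.86 ± 0.15, edgeR adjusted p = 0.00271), 2 of 7 genes, against 4.28% of 16538 genes called higher. Leaving out both doubtful libraries, HCC366 *ADAR* sg2 and NCI-H196 GFP sg2, gave 4 of 7, a choice made after the data were seen. In that fit 1968 of 18369 genes passed. Without HCC366 GFP sg1 *ZFP36* did not pass, and fewer of all genes did. Without HCC366 *ADAR* sg2 more of the 7 and more of all genes passed. Over all fits that left out 1 library, the log2 fold change ranged from 0.72 to 1.24 for *ZFP36* and from 0.74 to 1.01 for *BTG1*. The size of the KO effect was not shown to differ between lines. Without HCC366 *ADAR* sg1, which leaves 1 KO library in that line, 3 of 7 passed in HCC366 against NCI-H1650 (1 higher, 2 lower), where 4802 of 18195 genes did, and 1 in HCC366 against NCI-H196, where 4271 of 18195 did. Without *ADAR* sg2, 1 passed in the latter, where 413 of 18196 genes did. For *ZFP36* the effect in HCC366 exceeded that in NCI-H1650 by 1.88 ± 0.45 on the log2 scale (edgeR, adjusted p = 0.0558), and no member passed in HCC366 against NCI-H1650, HCC366 against NCI-H196 or NCI-H1650 against NCI-H196, where 0.659%, 0.792% and 0% of all genes did. In the last of these edgeR and DESeq2 both called 0 genes, with 544 and 81 at an unadjusted p under 0.05.

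A549 asks whether the same genes respond to ADAR1 loss in a line that tolerates it, and whether IFN-β changes that. With vehicle, no difference between *ADAR* KO and control cells was detected for the 7 genes. Their log2 fold changes lay between -0.12 ± 0.13 (*ZFP36*) and 0.09 ± 0.12 (*TOB2*), and edgeR called 0 of 7 (0 of 7 with an unadjusted p under 0.05, and 0 of 7 by DESeq2), where 0.123% of 15449 genes passed.

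IFN-β alone, in GFP control cells, raised *BTG1* from 59.5 and 61.0 CPM to 102 and 87.6 CPM, by 0.65 ± 0.12 on the log2 scale (edgeR, adjusted p = 1.87e-04). It was the only one of the 7 to pass with all libraries (more passed without GFP IFN-β sg2), where 4.39% of all genes were called higher. All 7 nonetheless had both IFN-β libraries above both vehicle libraries, which held for 21.7% of all genes. *ZFP36L1* gave 0.29 ± 0.10 (edgeR, adjusted p = 0.113) and *ZFP36* 0.17 ± 0.13 (adjusted p = 0.615).

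With IFN-β present, *ADAR* KO separated the libraries clearly. *BTG1* was at 102 and 87.6 CPM in control cells and 190 and 224 CPM in KO cells, a rise of 1.13 ± 0.11 (edgeR, adjusted p = 7.62e-09). *ZFP36* went from 41.8 and 43.0 CPM to 76.3 and 86.5 CPM, a rise of 0.94 ± 0.13 (edgeR, adjusted p = 1.92e-06). *ZFP36L1*, already the most abundant of the 7 in this line, went from 425 and 359 CPM to 628 and 729 CPM, a rise of 0.79 ± 0.10 (edgeR, adjusted p = 1.03e-06). For these 3 genes both KO libraries lay above all 6 other A549 libraries, and the share of all genes with this pattern was not counted.

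*BTG3* and *TOB2* rose less in the same comparison. *BTG3* went from 20.8 and 21.5 CPM to 26.6 and 30.8 CPM (0.45 ± 0.16, edgeR adjusted p = 0.0473), and *TOB2* from 57.3 and 56.2 CPM to 70.9 and 73.2 CPM (0.35 ± 0.11, edgeR adjusted p = 0.0331). *ZFP36L2*, at 48.7 and 48.5 CPM in control and 50.3 and 45.4 CPM in KO cells, and *TOB1*, at 90.3 and 68.2 CPM in control and 80.4 and 64.6 CPM in KO cells, did not separate. Thus 5 of 7 were called higher with IFN-β, against 10.8% of all genes. Both KO libraries lay above both controls for the same 5, as for 28.2% of all genes. The median log2 fold change was 0.45 over the 7 and -0.01 over all genes. Without GFP sg2 or without *ADAR* sg2, fewer of the 7 and fewer of all genes passed. The median of the 7 was then 0.47 and 0.33.

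The difference between the KO effects with IFN-β and with vehicle was tested directly in the fit of all 8 A549 libraries. It passed for *BTG1* (1.08 ± 0.16 on the log2 scale, edgeR adjusted p = 5.22e-05), *ZFP36* (1.06 ± 0.18, adjusted p = 3.45e-04) and *ZFP36L1* (0.79 ± 0.14, adjusted p = 6.75e-04), 3 of 7, where 4.07% of all genes had a larger effect with IFN-β. The other 4 differences were 0.42 ± 0.23 (*BTG3*), 0.26 ± 0.16 (*TOB2*), -0.07 ± 0.19 (*ZFP36L2*) and -0.14 ± 0.18 (*TOB1*). Seen from the other side, IFN-β in *ADAR* KO cells raised *BTG1* by 1.73 ± 0.12, *ZFP36* by 1.23 ± 0.13, *ZFP36L1* by 1.07 ± 0.10, *BTG3* by 0.62 ± 0.16 and *TOB2* by 0.38 ± 0.12 (edgeR, adjusted p from 3.76e-13 to 0.0150). That was 5 of 7, against 15.5% of all genes, and fewer of the 7 and of all genes passed without either sg2 library. These A549 comparisons share libraries and are not independent of each other. The fit of all 8 did not use the pairing of vehicle and IFN-β libraries by sgRNA.

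**Figure D3:**
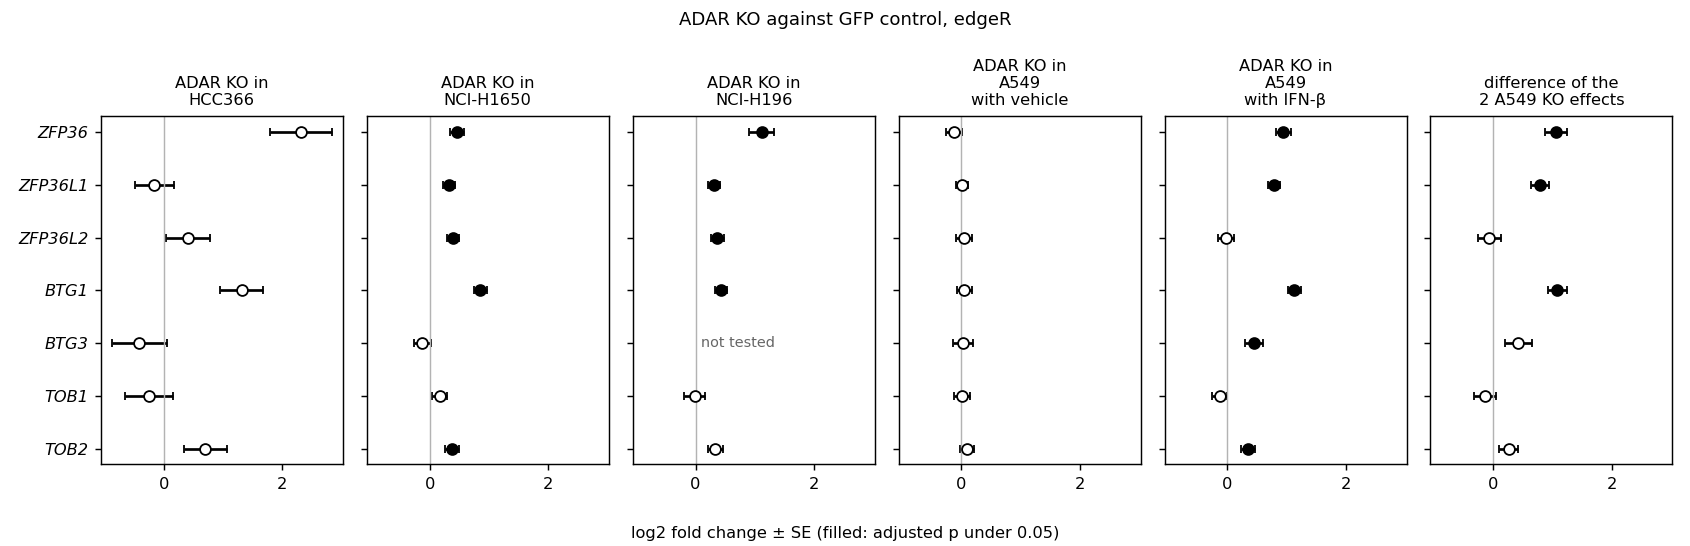
log2 fold change ± SE of *ADAR* KO against GFP control for the 7 genes (rows), by edgeR, in the 3 untreated lines and in A549 with vehicle or IFN-β, and in the last panel the difference between the 2 A549 effects. Filled points have an adjusted p under 0.05; 5, 4 and 5 points are filled in NCI-H1650, NCI-H196 and A549 with IFN-β, and none in HCC366 or A549 with vehicle.

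The partners of these regulators were described from lists. The 12 CCR4-NOT genes, the deadenylase that both families recruit, were called in 0 cases in HCC366, 1 in NCI-H1650 (higher), 3 in NCI-H196 (2 higher, 1 lower), 0 in A549 with vehicle and 3 in A549 with IFN-β (all higher), and their medians in these comparisons lay between -0.37 and 0.08. Of all genes, 2622 of 15449 passed in A549 with IFN-β, 2513 of 14094 in NCI-H196 and 1250 of 14530 in NCI-H1650 in either direction, beside which the counts of this list and the following 2 are to be read. *CNOT4*, a ubiquitin ligase gene of the complex, rose by 1.13 ± 0.14 with IFN-β (edgeR, adjusted p = 7.90e-07), and *TNKS1BP1* by 0.41 ± 0.12 (adjusted p = 0.0148). Of 14 genes for poly(A) trimming, decapping and 5′ decay, 5 were higher in A549 KO cells with IFN-β: the exonuclease gene *XRN1*, the deadenylase gene *PAN2*, and the decapping genes *PATL1*, *DCP1A* and *DCP2*, with *PATL1* at 0.57 ± 0.11 (edgeR, adjusted p = 3.03e-04). In the untreated lines 0 of 13 (HCC366), 2 of 14 (NCI-H1650) and 3 of 14 (NCI-H196, 2 higher) passed. Among 8 other proteins that bind AU-rich or stem-loop elements, 0, 1, 4 (2 higher), 0 and 3 passed in the 3 untreated lines, taken in the same order, and in A549 with vehicle and with IFN-β. *ZC3H12A*, which encodes the endonuclease Regnase-1, rose by 0.67 ± 0.16 in NCI-H1650 and 1.11 ± 0.11 in NCI-H196 (edgeR, adjusted p = 0.00298 and 1.36e-20) and had -0.10 ± 0.14 in A549 with IFN-β.

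*BTG2*, the family member known as a p53 and growth-factor target, was called higher in NCI-H196 (1.19 ± 0.29, edgeR adjusted p = 9.31e-04), in A549 KO cells with IFN-β (0.96 ± 0.20, adjusted p = 0.00131) and over the 3 untreated lines (1.02 ± 0.25, adjusted p = 0.0255). It did not pass in NCI-H1650 (0.60 ± 0.33, edgeR adjusted p = 0.293) or in A549 with vehicle (0.19 ± 0.22), and was not tested in HCC366 for low counts. In A549 its difference between the 2 KO effects was 0.77 ± 0.30 and did not pass (edgeR, adjusted p = 0.151). *DUSP1*, which encodes a phosphatase that opposes the p38 kinase route acting on ZFP36, rose by 1.22 ± 0.10 in A549 with IFN-β, by 0.72 ± 0.11 in NCI-H1650 and by 0.49 ± 0.12 in NCI-H196 (edgeR, adjusted p at most 7.87e-04). *MAPKAPK2*, the kinase gene of that route, gave values between -0.12 and 0.10 in these 3 comparisons, none of which passed.

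A list of 23 mRNAs known for AU-rich elements, 14 of which held the nonamer in the canonical 3′ UTR, is given beside the regulators. The list was chosen with earlier results of these data known. By edgeR 5 of 19 tested were higher in HCC366, 10 of 16 in NCI-H1650, 19 of 21 in NCI-H196, 0 of 20 in A549 with vehicle and 18 of 20 in A549 with IFN-β, and none was lower. Of all genes, 134 of 11135, 898 of 14530, 1456 of 14094, 5 of 15449 and 1666 of 15449 were higher in the same order. The median log2 fold changes of the list were 1.63, 0.97, 1.08, -0.02 and 1.48, beside medians of all genes between -0.01 and 0.01. The counts of the list moved with the libraries and the tool, as did those of all genes. In HCC366 the list's median was 1.40 without *ADAR* sg2, 1.64 without *ADAR* sg1, 1.76 without GFP sg1 and 1.45 without GFP sg2. In NCI-H196 it was 1.90 without GFP sg1 and 0.82 without *ADAR* sg2. These fits leave 1 library in an arm. DESeq2 called 2 of 21 higher in NCI-H196, 5 of 16 in NCI-H1650, 10 of 19 in HCC366 and 15 of 20 in A549 with IFN-β. Of all genes it called 11 of 14094, 338 of 14530, 298 of 11135 and 1437 of 15449 higher in that order. Genes to which DESeq2 gave no adjusted p are in these totals and count as not called. *CXCL8*, encoding a neutrophil chemokine, rose by 4.69 ± 0.24 in A549 with IFN-β, by 2.88 ± 0.40 in HCC366, by 1.78 ± 0.21 in NCI-H1650 and by 1.38 ± 0.11 in NCI-H196 (edgeR, adjusted p at most 0.0272). *IL6*, an inflammatory cytokine gene, rose by 2.50 ± 0.15 in A549 with IFN-β, by 1.43 ± 0.11 in NCI-H196 and by 1.15 ± 0.11 in NCI-H1650, and its value of 1.30 ± 0.33 in HCC366 did not pass (edgeR, adjusted p = 0.103). The effect of KO was larger with IFN-β than with vehicle for 15 of 20, where 4.07% of all genes passed.

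**Figure D4:**
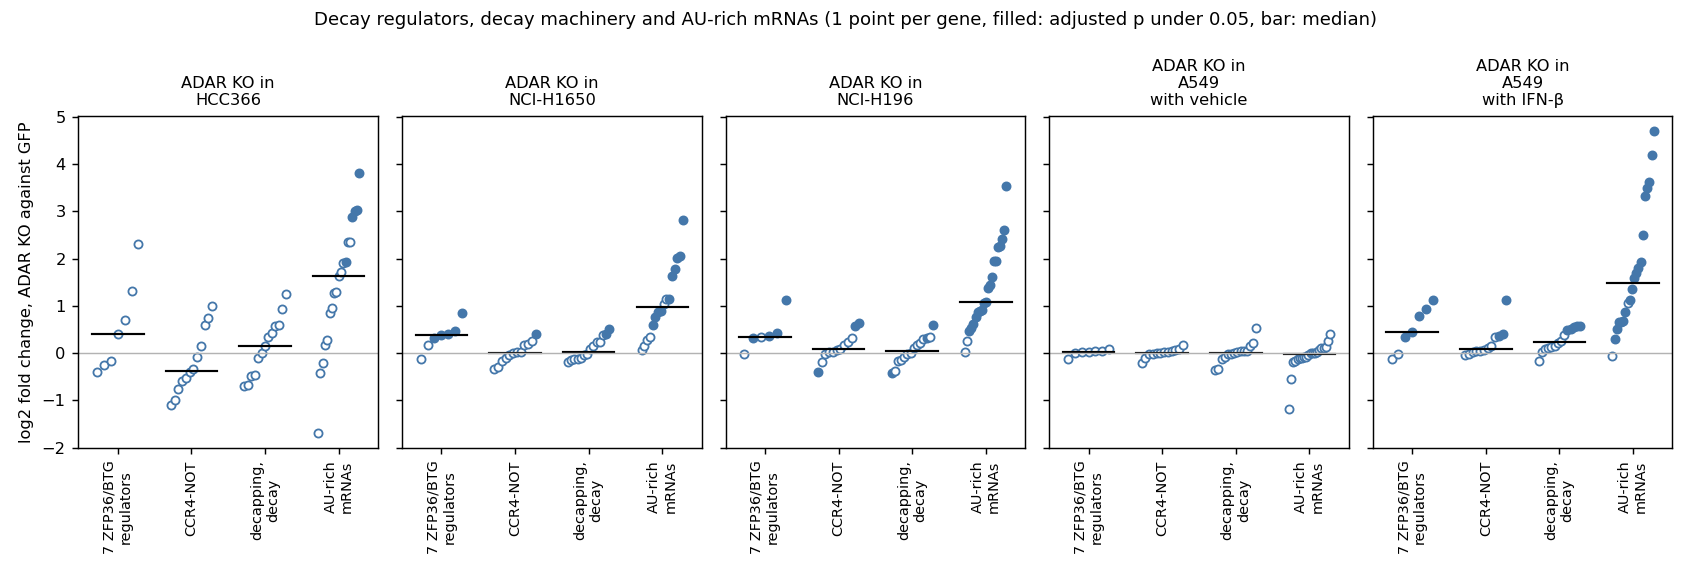
log2 fold change of *ADAR* KO against GFP control (vertical axis, edgeR) for the 7 regulators, the CCR4-NOT genes, the decapping and decay genes and the AU-rich mRNAs, with 1 point per gene, filled where the adjusted p was under 0.05, and a bar at the median. The AU-rich mRNAs have medians of 1.63, 0.97, 1.08 and 1.48 where ADAR1 loss met an untreated dependent line or IFN-β, and -0.02 in A549 with vehicle.

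Across 19 libraries, leaving out the shallowest, levels were centred within each cell line and the pattern of each regulator was set beside those of 10240 genes, as a description of libraries that share lines and treatments. The closest genes to *ZFP36* were *FOSL1*, *CARS1* and *SLC25A25* (Pearson r from 0.971 to 0.974). *ZFP36L1* was closest to *GPBP1*, *HIVEP1* and *BIRC3* (0.955 to 0.966), *BTG1* to *CYLD*, *SH3RF1* and *DUSP5* (0.956 to 0.971) and *TOB2* to *SNHG12*, *GATA6* and *CARS1* (0.961 to 0.967). The other 3 had looser neighbours: *TOB1* was closest to *MEAF6*, *BMS1P20* and *CRBN* (0.868 to 0.881), *ZFP36L2* to ENSG00000275993, *NXT1* and *ZC3H3* (0.860 to 0.871) and *BTG3* to *LTV1*, *NEK1* and *NOMO1* (0.774 to 0.789). *BTG3* was kept although its reads in NCI-H196 were too few to be tested, so its correlations rest in part on values near the floor. Among the 7 themselves, *ZFP36* and *TOB2* were the most alike (r = 0.940), followed by *BTG1* with *TOB2* (0.760), *ZFP36L2* with *TOB2* (0.757), *BTG1* with *ZFP36L1* (0.756) and *BTG1* with *ZFP36* (0.753). *TOB1* and *ZFP36* had an r of -0.45, the most negative of the 21 pairs. HCC366 *ADAR* sg2, whose levels went with GC content and transcript length, was kept among the 19 libraries. Its part in these correlations was not tested.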

How the data were processed

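The deposited files hold whole-number counts per gene, which the authors made from paired-end reads of rRNA-depleted, directional libraries with STAR (hg19) and HTSeq. Versions, the annotation release and the strand setting were not given in the sources used here. HTSeq's summary lines, 51.3 to 93.3% of each library, were left out. A table of gene names gave symbols to 55727 of 58233 identifiers, holding 97.4% of counts, and no 2 files were identical. Counts were analysed with edgeR 4.0.16 (R 4.3.3): filterByExpr by condition, TMM, quasi-likelihood F-tests and Benjamini-Hochberg adjustment over all genes tested (threshold 0.05), in each line alone, in all 8 A549 libraries, and in the 12 untreated libraries with cell line as a term. The code was tested on simulated counts. Alternatives used DESeq2 1.42.0, other normalization, filters, blocks and left-out libraries. The sgRNA numbers pair no GFP with *ADAR* libraries, since they name different sgRNAs. In A549 each sgRNA was used with vehicle and with IFN-β, a pairing that the main fit left out. Deviations of same-numbered libraries correlated at -0.25 to -0.0048. The 7 genes and all lists were chosen with earlier results of these data known. List genes named are those with the smallest adjusted p of their list in the A549 difference of KO effects or the 3-line fit; *DCP1A* was named after its values were seen.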

Additional observations from a re-analysis of the deposited data

Results flagged for a closer look

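The effect of *ADAR* KO in A549 differed between IFN-β and vehicle for 3 of the 7 regulators by edgeR's test of the difference itself. The difference on the log2 scale was 1.08 for *BTG1* (edgeR, adjusted p = 5.22e-05), 1.06 for *ZFP36* (adjusted p = 3.45e-04) and 0.79 for *ZFP36L1* (adjusted p = 6.75e-04). Both KO libraries with IFN-β lay above the other 6 A549 libraries in each case, a pattern whose share over all genes was not counted. With 2 libraries per condition, no single library was tested for standing apart from its group.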

How the results depend on the processing

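Alternatives gave 724 values of log2 fold changes. They cover the 7 genes, but *ZFP36* alone where KO effects were compared between lines. Levels between control lines were left out, as were values that kept their sign but had no adjusted p. Of the 724, 588 kept direction and side of the threshold, 67 lost the call, 35 gained it and 34 changed sign. Of these 34, 1 had been called (*ZFP36* in NCI-H196 without GFP sg1). The causes were not tested. The number of the 7 called in HCC366 was 0, where 139 of 11135 genes were called in either direction, the count given in brackets below. It was 1 with DESeq2 (362 of 11135 genes) and 1 without the filter on low counts (903 of 29655). GC and length offsets gave 2 (1037 of 11135), and all 20 libraries in 1 fit gave 3 (3701 of 19523). In NCI-H1650 the number of the 7 called was 5 (1250 of 14530 genes). DESeq2 gave 2 (419 of 14530) and the fit of all 20 gave 1 (159 of 19523). In NCI-H196 the number was 4 (2513 of 14094 genes). DESeq2 gave 0 (11 of 14094), the fit of all 20 gave 0 (98 of 19523) and no filter gave 2 (1552 of 33120). In A549 with IFN-β the number was 5 (2622 of 15449 genes). Without the filter it was 3 (2437 of 34503), as in the fit of all 20 (1087 of 19523). IFN-β in control cells gave 1 (880 of 15449 genes). Without the filter it gave 2 (927 of 34503), and in the fit of all 20 it gave 0 (531 of 19523). The fit of all 20 also gave 3 in place of 5 for IFN-β in KO cells (2067 of 19523). For the difference of KO effects that fit gave 1 in place of 3 (164 of 19523). The 3-line fit gave 2 (876 of 16538 genes), but 4 with DESeq2 (1300 of 16538). Chosen after seeing the data, it gave 4 without HCC366 *ADAR* sg2 and NCI-H196 GFP sg2 (1968 of 18369). Without HCC366, also chosen after seeing the data, it gave 5 (2012 of 16195). The difference between HCC366 and NCI-H1650 gave 0, but 1 without the filter (399 of 39217 genes). Levels between control lines gave 35 calls, but 20 with DESeq2. Of 15964 genes, edgeR called 9050 to 11252 per pair of lines and DESeq2 3968 to 5704. All counts given for DESeq2 hold genes to which it gave no adjusted p, as not called.

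The sgRNA number was also used as a replicate block, which pairs no GFP with *ADAR* libraries. It gave 1 in HCC366 (300 of 11135 genes), or 2 with GC and length offsets (1453 of 11135). In NCI-H196 the block gave 0 (115 of 14094), in the 3-line fit 1 (362 of 16538). For HCC366 against NCI-H1650 it gave 1 (171 of 16538). With the numbers crossed in HCC366, added after seeing the data, 2 were called (960 of 11135 genes). A block for each sgRNA, which pairs vehicle with IFN-β libraries in A549, left the counts at 1, 5 and 3. These are for IFN-β in control cells, IFN-β in KO cells and the difference of KO effects. *TOB1* in NCI-H196 was 0.061 with the block and 0.16 with DESeq2 in place of -0.02, and in the 3-line fit 0.0104 with DESeq2, 0.0095 with its size factors, 0.074 without the 2 doubtful libraries and 0.12 without HCC366, in place of -0.03.

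Leaving out 1 library at a time, the calls ranged from 0 to 5 in HCC366, 1 to 4 in NCI-H1650, 0 to 5 in NCI-H196, 3 to 4 in A549 with IFN-β, 1 to 3 and 3 to 5 for IFN-β in control and KO cells, 1 to 3 in the 3-line fit, 0 to 3 and 0 to 1 for HCC366 against NCI-H1650 and NCI-H196, and 20 to 35 between control lines; the difference of KO effects stayed at 3. Log2 fold changes that changed sign this way ranged from -0.80 to 0.25 (*BTG3*) and -0.75 to 0.11 (*TOB1*) in HCC366, -0.27 to 0.016 (*BTG3*) and -0.021 to 0.36 (*TOB1*) in NCI-H1650, and -0.26 to 1.24 (*ZFP36*), -0.034 to 0.93 (*TOB1*) and -0.26 to 0.43 (*TOB2*) in NCI-H196. In A549 with vehicle they ranged from -0.23 to 0.026 (*ZFP36*), -0.026 to 0.033 (*ZFP36L1*), -0.14 to 0.29 (*ZFP36L2*), -0.037 to 0.14 (*BTG1*), -0.041 to 0.091 (*BTG3*) and -0.028 to 0.058 (*TOB1*). With IFN-β they ranged from -0.10 to 0.052 (*ZFP36L2*) and -0.33 to 0.083 (*TOB1*), and for the difference of KO effects from -0.31 to 0.12 and -0.34 to 0.066. *TOB1* ranged from -0.035 to 0.28 for IFN-β in KO cells and -0.13 to 0.079 in the 3-line fit, and *ZFP36* from -0.68 to 0.52 for NCI-H1650 against NCI-H196. Where KO effects were compared between lines, changes of sign were followed for *ZFP36* only.

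Depth is lowest in NCI-H196 GFP sg2 (62679 reads on genes) and NCI-H196 *ADAR* sg1 (1026443), followed by 3 of the HCC366 libraries (1116439 to 1759633). A fit with 1 library left out of a condition assumes that the lone library varies like the others; with 2 sgRNA pools per condition, effects of single sgRNAs and of ADAR1 loss cannot be told apart within a condition.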
